A study of Mus musculus with 9 samples.

Results

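The 10 genes described here encode subunits of the AMPA and NMDA glutamate receptors. They were taken by name: the AMPA receptor subunits Gria1, Gria2, Gria3 and Gria4, and the NMDA receptor subunits Grin1, Grin2a, Grin2b, Grin2c, Grin2d and Grin3a. They are 10 of the 27179 gene identifiers in the deposited count table, and all 10 were among the 16749 genes that passed the filter on low counts. Expression was measured by RNA sequencing of spinal cord from C57BL/6 mice in 3 groups of 3 mice, with 1 library per mouse. The groups were EAE+EHP-101 (mice with experimental autoimmune encephalomyelitis, EAE, given EHP-101 orally at 20 mg/kg; also called treated), EAE alone and Control. EAE is an induced immune attack on myelin and a mouse model of multiple sclerosis, and EHP-101 is a compound known by a code name. The sources used here do not give sex, age, the way EAE was induced, what EAE and Control mice received in place of the compound, when mice were sampled or how long they were treated.

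Both receptor types are ion channels opened by glutamate and built from 4 subunits. AMPA receptors carry the fast part of excitatory transmission, and a GluA2 subunit (from Gria2), once its RNA has been edited, keeps calcium out of the channel. NMDA receptors need GluN1 (Grin1), which binds glycine or D-serine, together with GluN2 subunits (Grin2a to Grin2d), which bind glutamate and set how fast the channel closes; GluN3A (Grin3a) lowers calcium entry. In the spinal cord these receptors serve motor, sensory and interneuron synapses, and AMPA receptors are also present on glia.

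The promoter sequences, from RefSeq on build GRCm38.p6, were given for 5 of the 10 genes (Gria2, Gria4, Grin1, Grin2c and Grin2d). The 250 bases before the start are printed 5′ to 3′ on the gene's strand for 2 AMPA receptor genes whose transcripts were lower in EAE, and for Grin2c, whose transcript was not called in any comparison. Capitals mark the GC box GGGCGG, searched on both strands together with its reverse complement CCGCCC.
Gria2 promoter, chr3:80802836-80803085, minus strand: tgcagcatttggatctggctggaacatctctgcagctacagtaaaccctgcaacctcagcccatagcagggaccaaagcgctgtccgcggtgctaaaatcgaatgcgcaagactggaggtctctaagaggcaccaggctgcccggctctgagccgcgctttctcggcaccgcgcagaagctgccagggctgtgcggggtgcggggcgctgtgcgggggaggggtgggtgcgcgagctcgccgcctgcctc
Gria4 promoter, chr9:4796235-4796484, minus strand: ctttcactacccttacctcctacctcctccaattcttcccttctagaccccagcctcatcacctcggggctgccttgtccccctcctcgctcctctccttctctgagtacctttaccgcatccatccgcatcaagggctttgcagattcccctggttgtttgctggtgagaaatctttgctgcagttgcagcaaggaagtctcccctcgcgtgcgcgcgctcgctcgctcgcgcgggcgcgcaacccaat
Grin2c promoter, chr11:115267244-115267493, minus strand: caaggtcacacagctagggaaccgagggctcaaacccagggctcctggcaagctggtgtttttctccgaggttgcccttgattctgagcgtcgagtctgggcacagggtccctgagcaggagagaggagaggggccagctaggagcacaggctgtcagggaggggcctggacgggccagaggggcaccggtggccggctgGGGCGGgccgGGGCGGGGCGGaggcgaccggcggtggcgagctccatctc
The Grin2c stretch held 3 GC boxes, of which the last pair share a G,, and the Gria2, Gria4, Grin1 and Grin2d stretches held 0. Of 32851 promoter stretches of the same length, 32.7% held at least 1 GC box. CpG pairs numbered 19 in Gria2, 16 in Gria4, 27 in Grin1, 15 in Grin2c and 9 in Grin2d, against a median of 6 over all promoters. The full cAMP response element TGACGTCA was in none of the 5 stretches (0) and in 1.55% of all promoters.

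Libraries held 30448507 to 32661741 counts over 19695 to 20093 genes with a count. The first principal component of log2 expression took 67.0% of the variance; treated libraries lay at -22.2 to 15.2 on it, EAE libraries at 36.0 to 50.2 and Control libraries at -47.2 to -40.9. All 15 neuron markers had counts in every library, and their summed level was 13190 to 13900 CPM (counts scaled by effective library size) in treated mice, 12300 to 13900 CPM in EAE mice and 12220 to 14670 CPM in Control mice, so the groups overlapped. The inhibitory neuron markers summed to 932 to 1069 CPM in treated mice and 833 to 1019 CPM in EAE mice, both below the 1139 to 1285 CPM of Control mice. The excitatory neuron markers summed to 357.6 to 400.6 CPM, 332.6 to 385.8 CPM and 401.4 to 493.8 CPM in treated, EAE and Control mice. Both EAE groups lay below Control in this sum, with treated replicate 1 (400.6 CPM) close to Control replicate 1 (401.4 CPM). Of the 7 genes in the sum, only Slc17a6 was called lower against Control, in EAE and in treated mice. Estimates above 0 numbered 3 in EAE and 4 in treated mice. The sums of endothelial markers (142.2 to 187.2 CPM in EAE, 219.4 to 322.4 CPM in Control) and of oligodendrocyte progenitor markers (537.2 to 550.9 CPM in EAE, 572.8 to 603.6 CPM in Control) were also lower in EAE without overlap. The astrocyte sum was higher (11260 to 13430 CPM in EAE, 9052 to 11010 CPM in Control). Of 8 progenitor markers, however, 1 was called lower and 1 higher in EAE (edgeR, adjusted p under 0.05), with 4 estimates below 0 and 4 above. All 7 endothelial markers were called lower, and of 9 astrocyte markers 3 were called higher and 0 lower. Of all genes, 16.7% were called lower and 20.2% higher. Control replicate 1 stood apart in its skeletal muscle markers, with a sum of 41.4 CPM against 2.16 to 3.11 CPM elsewhere. The microglia and macrophage markers stood at 469.8 to 739 CPM, 1407 to 1916 CPM and 360.4 to 460.4 CPM in treated, EAE and Control mice. Apart from a scaling to the neuron markers, given below, the part of these cell markers in the results was not tested. The level of a gene was also related to its exon length in a way that differed between libraries: its deviation from the gene's mean correlated with log2 length across genes at -0.234 to 0.014 in treated libraries, -0.214 to -0.142 in EAE libraries and 0.182 to 0.288 in Control libraries. The labels give no batch.

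Levels are first compared between the genes per kilobase of the exon length in the count table. In treated mice Grin1 stood at 38.1 ± 2.88 CPM per kb, Gria4 at 36.2 ± 1.77, Gria2 at 33.1 ± 0.798, Gria1 at 29.8 ± 0.565 and Gria3 at 27.6 ± 1.18. In EAE mice the AMPA subunits and Grin1 formed the high end, with means ± SD (n = 3 in each group) of 33.7 ± 4.84 CPM per kb for Grin1, 33.5 ± 2.43 for Gria4, 30.3 ± 1.14 for Gria1, 29.4 ± 2.58 for Gria2 and 26.8 ± 1.90 for Gria3. In Control mice Gria4 stood at 41.8 ± 1.87 CPM per kb, Grin1 at 41.2 ± 5.27, Gria2 at 40.4 ± 2.94, Gria3 at 32.7 ± 1.86 and Gria1 at 31.1 ± 2.17. Gria4, Grin1 and Gria2 overlapped in Control libraries, as did Gria3 and Gria1, so those neighbours cannot be ordered. Grin3a came next, with 7.87 ± 1.06 CPM per kb in treated mice, 6.87 ± 0.659 in EAE mice and 10.1 ± 0.394 in Control mice. Grin2d and Grin2c followed: Grin2d had 4.81 ± 0.389, 3.82 ± 0.713 and 5.13 ± 0.836 CPM per kb in treated, EAE and Control mice, and Grin2c had 4.76 ± 0.482, 4.77 ± 0.301 and 5.31 ± 1.42 CPM per kb. Grin2b and Grin2a were at the low end with 1.05 ± 0.160 and 0.923 ± 0.156 CPM per kb in treated mice, 0.750 ± 0.176 and 0.725 ± 0.165 in EAE mice, and 1.69 ± 0.225 and 1.59 ± 0.0234 in Control mice. Grin2b and Grin2a overlapped in every group, whereas Grin2c and Grin2d overlapped in treated and Control libraries and Grin2c lay above Grin2d in EAE libraries. The exon length in the table is shorter than the exons of GENCODE vM21 for several of these genes, with the annotated length 3.98 times as long for Grin2a, 3.67 times for Grin3a and 3.31 times for Grin2b, and 1.01 to 1.03 times for Gria1, Gria4 and Grin2c. Reads in the remaining exon bases were not counted, which bears on the order of levels.

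**Figure D1:**
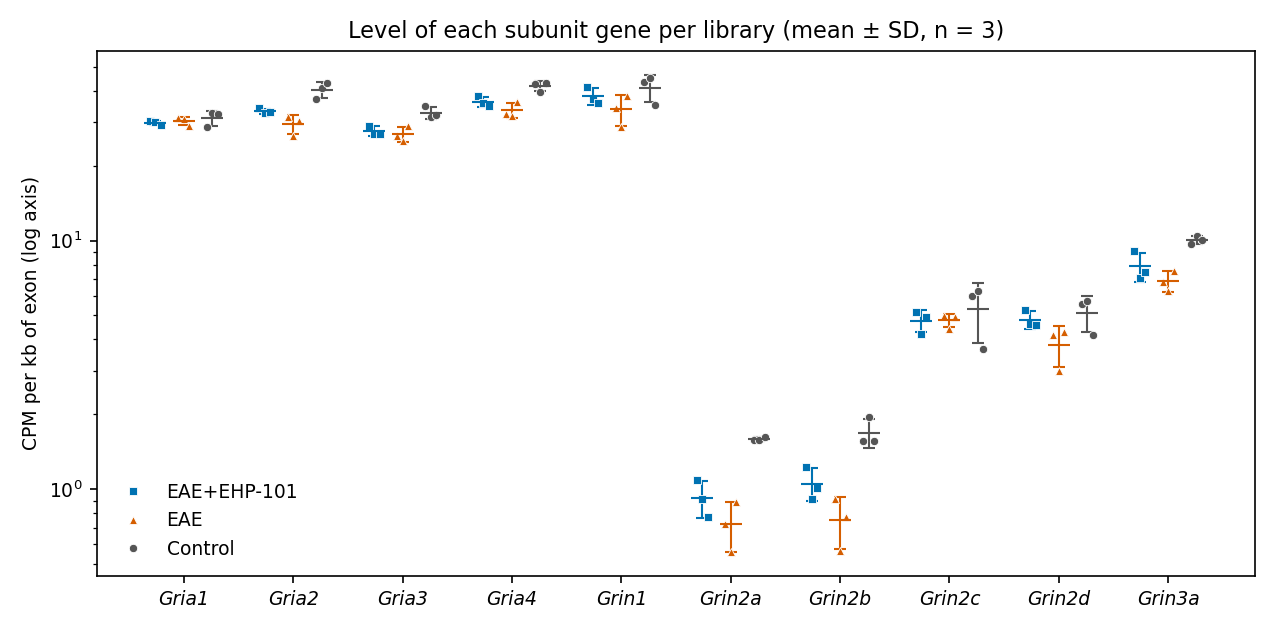
Level of each of the 10 subunit genes in every library, in CPM per kilobase of exon on a log axis, with the groups EAE+EHP-101, EAE and Control in that order and 3 libraries (points) per group. Grin2a and Grin2b are lowest in all groups, and their EAE and EAE+EHP-101 points lie below every Control point.

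EAE against Control, which asks which receptor transcripts differ with the disease, gave 7 of 10 genes lower, 0 higher and 3 not called at an adjusted p under 0.05 (edgeR quasi-likelihood test, Benjamini-Hochberg over 16749 genes). Of all genes tested, 16.7% were called lower and 20.2% higher, so the subunits were called lower more often than the background share. At an unadjusted p under 0.05, 8 were lower and 0 higher, and the share of all genes at this threshold was not computed. The DESeq2 Wald test called 8 lower and 0 higher, against 18.1% and 18.6% of all genes. The libraries of the groups did not overlap for 6 of the 10 genes, with EAE below Control each time, against 21.1% of all genes. The median log2 fold change of the 10 genes was -0.37, against 0.01 for all genes tested. In bulk tissue, fewer cells that express a gene and less RNA per cell cannot be told apart.

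Among the AMPA receptor subunits, Gria2, Gria4 and Gria3 fell in EAE and Gria1 was not called. Gria2 (gene ID 14800, chr3:80684936-80802791, minus strand; mm10, as are all coordinates of genes here) encodes GluA2. Its levels were 264, 252 and 255 CPM in the treated libraries, 244, 205 and 234 CPM in the EAE libraries, and 289, 317 and 334 CPM in the Control libraries. Every EAE library lay below every Control library, with the treated libraries between them and overlapping neither. Gria2 was 1.38-fold lower in EAE, a log2 fold change of -0.46 (SE 0.076, adjusted p = 0.000881), and its call held in the 10 other analyses and with each library left out.

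Gria4 (ID 14802, chr9:4417893-4796234, minus strand), encoding the fast-closing GluA4, had 235, 219 and 214 CPM in treated mice, 199, 195 and 223 CPM in EAE mice, and 262, 244 and 266 CPM in Control mice. EAE lay below Control without overlap, and the treated libraries overlapped with EAE but not with Control. The log2 fold change for EAE against Control was -0.32 (SE 0.068, adjusted p = 0.00368), 1.25-fold lower.

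Gria3 (ID 53623, chrX:41401304-41678601, plus strand), encoding GluA3, had 150.5, 139.8 and 139.9 CPM in treated mice, 137, 130.5 and 149.9 CPM in EAE mice, and 181, 163 and 166 CPM in Control mice. Both EAE groups lay below all Control libraries and overlapped with each other. Its log2 fold change for EAE against Control was -0.29 (SE 0.068, adjusted p = 0.00702).

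Gria1 (ID 14799, chr11:57011618-57330244, plus strand), encoding GluA1, had 181, 179 and 175 CPM in treated mice, 186, 185 and 173 CPM in EAE mice, and 171, 194 and 193 CPM in Control mice. The 3 groups overlapped. The log2 fold change for EAE against Control was -0.04, with a 95% interval of -0.17 to 0.10 (adjusted p = 0.687).

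Among the NMDA receptor subunits, the largest falls were those of Grin2b and Grin2a. Grin2b (ID 14812, chr6:135729795-136173511, minus strand) encodes GluN2B, the subunit of slowly closing receptors that is abundant early in life. It had 9.24, 6.89 and 7.62 CPM in treated mice, 6.86, 4.23 and 5.83 CPM in EAE mice, and 11.7, 14.7 and 11.7 CPM in Control mice, from 132 to 463 counts per library. The 3 groups did not overlap, and EAE was lowest, although treated replicate 2 (6.888 CPM) lay close to EAE replicate 1 (6.855 CPM). Grin2b was 2.25-fold lower in EAE than in Control (log2 fold change -1.17, SE 0.17, adjusted p = 0.000500).

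Grin2a (ID 14811, chr16:9577710-9992533, minus strand) encodes GluN2A, which forms faster-closing receptors. It had 4.89, 4.11 and 3.49 CPM in treated mice, 3.26, 2.53 and 4.02 CPM in EAE mice, and 7.13, 7.12 and 7.31 CPM in Control mice, from 79 to 225 counts per library. Every EAE and treated library lay below every Control library, and the EAE and treated libraries overlapped. The fall in EAE was 2.19-fold (log2 fold change -1.13, SE 0.17, adjusted p = 0.000537).

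Grin3a (ID 242443, chr4:49665226-49845081, minus strand) had 30.4, 23.7 and 25.0 CPM in treated mice, 22.8, 20.9 and 25.3 CPM in EAE mice, and 32.4, 35.0 and 33.7 CPM in Control mice. Again all EAE and treated libraries were below Control and overlapped with each other. The log2 fold change in EAE was -0.55 (SE 0.10, adjusted p = 0.00150), 1.47-fold lower.

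Grin2d (ID 14814, chr7:45832483-45866681, minus strand), encoding GluN2D of very slowly closing receptors, had 23.1, 20.1 and 20.1 CPM in treated mice, 18.2, 13.1 and 18.8 CPM in EAE mice, and 24.3, 24.9 and 18.3 CPM in Control mice. Control replicate 3 lay inside the EAE range, so EAE and Control overlapped. Its log2 fold change was -0.43 (SE 0.15, adjusted p = 0.0395), the weakest of the 7 calls. The call ended without Control replicate 1 or 2 (adjusted p = 0.0865 and 0.109), without EAE replicate 1 or 2 (0.0505 and 0.102) or without treated replicate 2 (0.0527), with library totals (0.0574), with only the EAE and Control libraries fitted (0.0531) and with a replicate block (0.0502). Grin2d shares 421 exon bases with a gene without a symbol (ID 100502828) on the opposite strand, which had 5 to 20 counts per library. The strand setting of the counting is not given, so reads may be mixed in these bases.

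Grin1 (ID 14810, chr2:25291177-25319163, minus strand), the subunit that NMDA receptors require, was not called. It had 175, 157 and 152 CPM in treated mice, 145, 121 and 162 CPM in EAE mice, and 184, 191 and 149 CPM in Control mice, where replicate 3 lay inside the EAE range. The log2 fold change in EAE was -0.29 (SE 0.11, 95% interval -0.54 to -0.04, adjusted p = 0.0649). Without Control replicate 3 it was -0.42 (adjusted p = 0.00891), without EAE replicate 3 it was -0.41 (0.0223), and the DESeq2 Wald test gave -0.31 (0.0297). Grin1 shares 1307 exon bases with the gene Grin1os on the opposite strand, which had 66 to 162 counts per library; the strand setting of the counting is not given, so reads of the 2 genes may be mixed in these bases.

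Grin2c (ID 14813, chr11:115249169-115267243, minus strand), encoding GluN2C, had 25.1, 20.6 and 24.1 CPM in treated mice, 24.3, 21.7 and 24.1 CPM in EAE mice, and 29.2, 30.7 and 18.0 CPM in Control mice. Control replicate 3 was the lowest of the 9 libraries and the other Control libraries were the highest. The log2 fold change in EAE was -0.15 (95% interval -0.51 to 0.21, adjusted p = 0.494). Without Control replicate 3 it was -0.39 (adjusted p = 0.00637). Control replicate 3 also had the highest oligodendrocyte marker sum of its group, 38720 CPM against 28460 and 29060 CPM in Control replicates 1 and 2; the part of this in the Grin2c, Grin2d and Grin1 values was not tested.

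**Figure D2:**
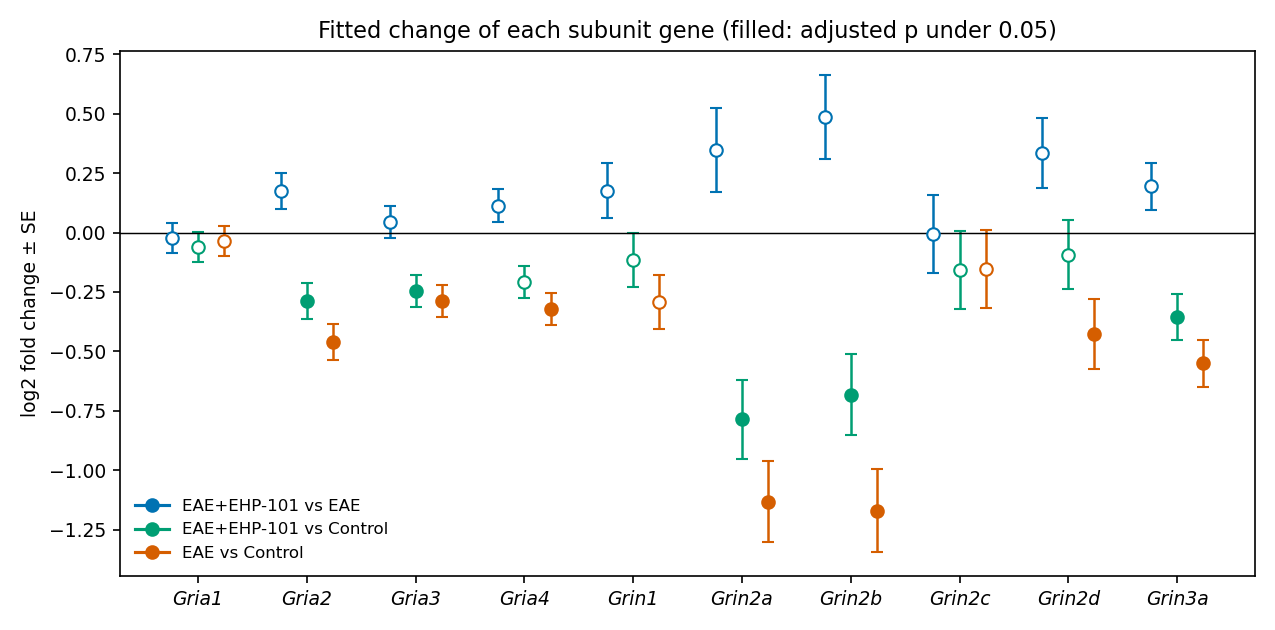
Log2 fold change of each of the 10 subunit genes with its SE in the 3 comparisons, from the edgeR quasi-likelihood fit over 9 libraries. All 10 estimates for EAE against Control are below 0, from -1.17 for Grin2b to -0.04 for Gria1, and the 10 estimates for EAE+EHP-101 against EAE lie between -0.02 and 0.49.

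The EAE comparison was also fitted under 2 other scalings. Scaled to the summed counts of the 15 neuron markers in place of all genes, 7 of the 10 genes were again lower in EAE, with a median log2 fold change of -0.35, against 9.49% of all genes called lower under this scaling. Within the marker lists themselves, 3 of 15 neuron markers, 5 of 8 inhibitory neuron markers, 1 of 7 excitatory neuron markers and 0 of 7 motor neuron markers were lower in EAE, and 0 of each were higher, against 16.7% of all genes called lower and 20.2% higher; the excitatory sum nevertheless separated from Control, as given above. With each library's trend in gene length removed, the median of the 10 genes was -0.21, and 4 genes stayed lower, against 10.1% of all genes: Grin2a (log2 fold change -1.03, adjusted p = 0.00105), Grin2b (-0.93, 0.00140), Grin3a (-0.52, 0.00245) and Gria2 (-0.22, 0.0372). Gria3 (-0.15, adjusted p = 0.108), Gria4 (-0.14, 0.137) and Grin2d (-0.33, 0.108) were then not called, and Gria1 turned to 0.14 (0.124). All-gene medians under these 2 scalings were 0.03 and 0.00. The trend was taken over the exon length of the count table, which is shortest relative to the GENCODE length for Grin2a, Grin3a and Grin2b among the 10 genes; the part of this in their values was not tested.

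**Figure D3:**
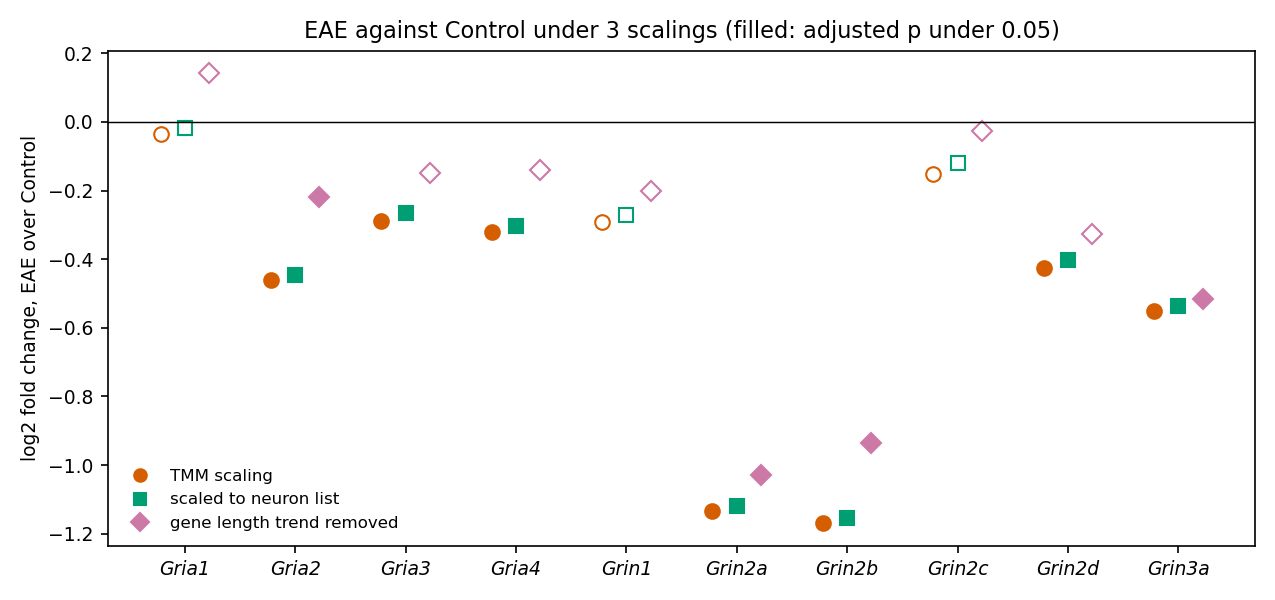
Log2 fold change for EAE against Control of the 10 subunit genes under 3 scalings: TMM factors, the summed neuron markers, and TMM with each library's gene length trend removed. Grin2a, Grin2b, Grin3a and Gria2 are called lower under all 3, and Gria1 lies above 0 only with the length trend removed.

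The transcripts of each family, the 4 Gria genes or the 4 Grin2 genes, were expressed as the share of each subunit in the summed CPM per kb. Grin1 and Grin3a were not part of these shares. The shares describe RNA of bulk tissue, and the subunit make-up of assembled receptors was not measured. With 3 libraries against 3, the exact two-sided permutation test cannot give a p below 0.1, and shares of one family are not independent of each other. The shares also rest on the exon length of the count table. GENCODE exons are 3.98 times as long for Grin2a and 3.31 times for Grin2b, but 1.03 times for Grin2c and 1.52 times for Grin2d. Reads in the remaining exon bases were not counted, which bears on the size of these shares. The Gria1 share was 25.6%, 27.1% and 23.3% in the EAE libraries, against 19.9%, 22.5% and 21.4% in the Control libraries. EAE was higher without overlap, 25.3% ± 1.88 against 21.3% ± 1.27 (SD, n = 3; exact permutation p = 0.1, adjusted over 8 shares 0.16). The Gria2 share was lower in EAE without overlap, 24.5% ± 1.39 against 27.7% ± 1.44, while the Gria3 and Gria4 shares overlapped. The nearest Gria2 shares were 25.92% in EAE replicate 1 and 26.01% in Control replicate 1.

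Among the Grin2 genes the Grin2c share was 46.1%, 51.8% and 45.3% in EAE, against 40.7%, 40.5% and 33.3% in Control, higher in EAE without overlap. The Grin2a share was 7.16% ± 0.892 in EAE against 11.9% ± 2.44 in Control, and the Grin2b share 7.40% ± 0.980 against 12.5% ± 1.75 (SD, n = 3), both lower in EAE without overlap. Grin2d took 37.7% ± 2.33 in EAE and 37.5% ± 0.639 in Control, and overlapped. Each of the non-overlapping shares had an exact permutation p of 0.1 (adjusted 0.16), so none passed 0.05. In treated mice the Grin2c share was 40.4%, 39.6% and 43.6%, below all EAE libraries, and the Grin2d share was 41.4%, 43.2% and 40.6%, above all EAE libraries. The Grin2b share, 9.09% ± 0.538 in treated mice against 7.40% ± 0.980 in EAE mice, was also higher without overlap (exact permutation p = 0.1 for each of the 3, adjusted 0.267). The nearest Grin2b shares were 8.62% in treated replicate 2 and 8.49% in EAE replicate 1. Against Control, treated mice had higher Gria1 (23.5% ± 0.431 against 21.3% ± 1.27) and Grin2d shares (41.7% ± 1.35 against 37.5% ± 0.639), and lower Grin2a (7.98% ± 0.976 against 11.9% ± 2.44) and Grin2b shares (9.09% ± 0.538 against 12.5% ± 1.75), all without overlap (SD, n = 3; exact permutation p = 0.1, adjusted 0.2).

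**Figure D4:**
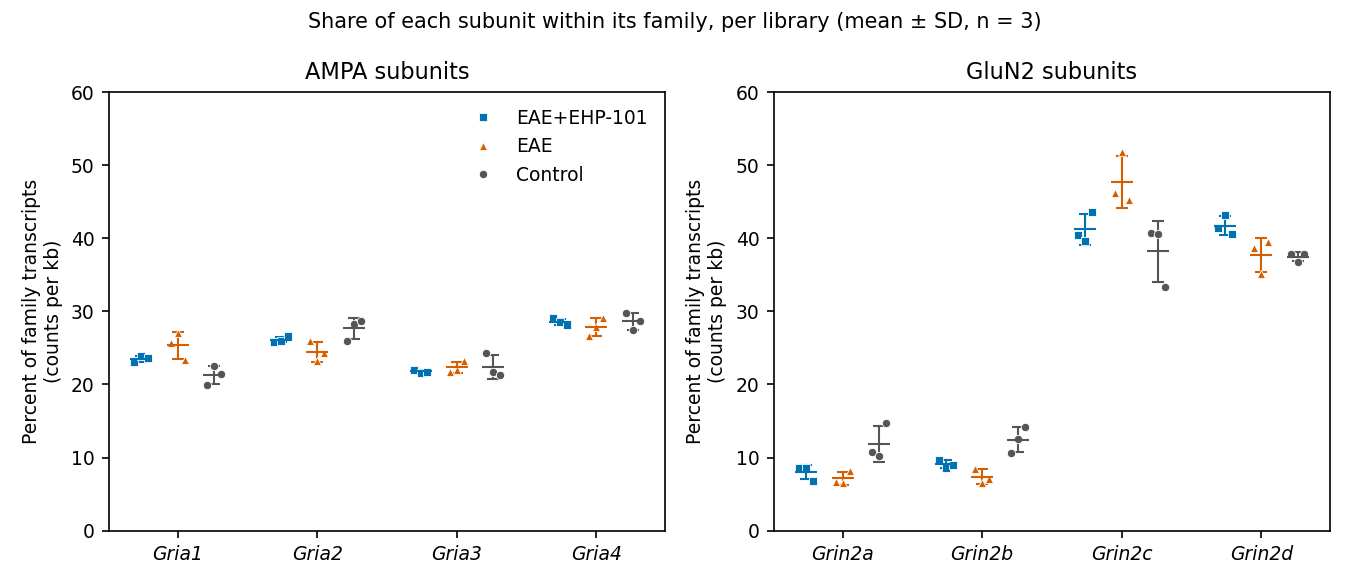
Share of each subunit in the summed CPM per kb of its family in percent, for the 4 Gria genes and the 4 Grin2 genes, in every library (points) of EAE+EHP-101, EAE and Control. On the exon lengths of the count table, Grin2c and Grin2d together make up most of the Grin2 signal in every library. The Grin2c share is higher in the 3 EAE libraries (45.3% to 51.8%) than in any other library.

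The genes around these receptors were described by 7 lists of 82 genes, of which 81 were tested (Grm6 was not). For EAE against Control 40 were lower and 2 higher, with a median log2 fold change of -0.24, against 16.7% of all genes lower and 20.2% higher. That background also applies to each list below in the edgeR fit with TMM factors over all 9 libraries. No test was made of a list against it. Of all genes, 15.6% were called lower without Control replicate 2 and 13.1% without EAE replicate 2. Among the AMPA receptor auxiliary and assembly proteins, 5 of 17 were lower and 0 higher (3 lower without Control replicate 2 or without EAE replicate 2). Frrs1l, which helps assemble AMPA receptors in the endoplasmic reticulum, had 60.9 ± 11.8 CPM in EAE and 110.5 ± 2.68 CPM in Control (log2 fold change -0.86, SE 0.14, adjusted p = 0.000722). Cacng2, encoding the AMPA receptor carrier stargazin, had 38.7 ± 8.38 CPM in EAE and 66.6 ± 7.77 CPM in Control (-0.78, adjusted p = 0.00155), and the auxiliary subunit Shisa6 fell by 0.44 on the log2 scale (adjusted p = 0.00155; 0.0544 with the length trend removed).

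Of the 8 other ionotropic subunits 4 were lower and 0 higher (2 lower without EAE replicate 2). They included the kainate receptor subunit Grik3 (log2 fold change -0.47, adjusted p = 0.00437) and the delta receptor subunit Grid1 (-0.40, 0.0167; 0.0554 without EAE replicate 1 and 0.0507 without EAE replicate 2). The metabotropic receptors, which signal through G proteins, had 6 of 7 lower and 0 higher. Grm3 had 27.7 ± 1.98 CPM in EAE and 42.3 ± 4.15 CPM in Control (-0.61, adjusted p = 0.000282) and Grm7 stood at -0.34 (0.00498).

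Of 30 postsynaptic scaffolds and kinases, 18 were lower and 1 higher. Scaled to the neuron markers 11 were lower, against 9.49% of all genes, and with the length trend removed 6, against 10.1%. Dlg2, a scaffold that anchors NMDA receptors, had 167 ± 8.69 CPM in EAE and 237 ± 9.22 CPM in Control (log2 fold change -0.50, SE 0.064, adjusted p = 0.000210). The Homer proteins tie metabotropic receptors to the scaffold; Homer2 fell by 0.59 on the log2 scale (adjusted p = 0.000344), while Homer3 was the member that rose, with 16.4 ± 1.81 CPM in EAE against 10.5 ± 0.301 CPM in Control (log2 fold change 0.65, adjusted p = 0.000684). The microglia and macrophage marker sum was also higher in EAE (1407 to 1916 CPM against 360.4 to 460.4 CPM in Control), and its part in the Homer3 value was not tested.

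Of 12 genes of glutamate transport and metabolism, 4 were lower and 1, Glud1, was higher (log2 fold change 0.15, adjusted p = 0.0456). In the 9 fits without 1 library, 0 of the 12 were higher in 8 fits. The vesicular glutamate transporter Slc17a6 had 216 ± 13.6 CPM in EAE and 302 ± 29.6 CPM in Control (log2 fold change -0.49, adjusted p = 0.00101). Slc17a7, the vesicular transporter of cortical neurons, was at 0.231 ± 0.132 CPM in EAE and 2.11 ± 1.09 CPM in Control (-3.18, SE 0.66, adjusted p = 0.00331), a low level in both groups. Of 4 genes of D-serine metabolism 1 was lower, the serine racemase Srr (-0.20, adjusted p = 0.0167; 0.0595 without EAE replicate 1, 0.237 when scaled to the neuron markers and 0.0743 with the length trend removed). Of the 3 adenosine deaminases acting on RNA, which include the editor of the Gria2 transcript, 2 were lower: Adarb1 had 246 ± 25.0 CPM in EAE and 313 ± 22.2 CPM in Control (-0.35, adjusted p = 0.0112), and Adar stood at -0.24 (0.0305). The Adar call ended without Control replicate 2 (adjusted p = 0.0679), without EAE replicate 2 (0.0743), with library totals (0.0589), with a replicate block (0.0554) and when scaled to the neuron markers (0.132). Editing itself cannot be read from counts. With the length trend removed, Adarb1 was at adjusted p = 0.196, Adar at 0.53, Grik3 at 0.106 and Homer2 at 0.0848.

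**Figure D5:**
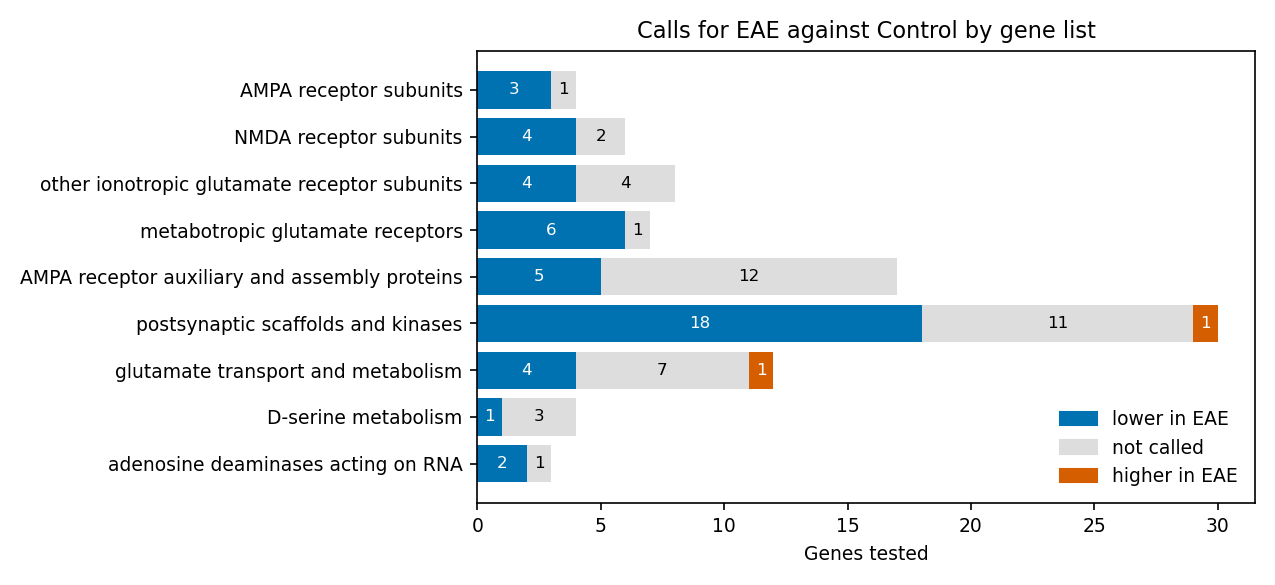
Number of genes called lower, not called and called higher for EAE against Control, as a stacked horizontal bar per list. The lists are the 7 surrounding gene lists and the AMPA and NMDA receptor subunits. Calls are mostly falls.

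EAE+EHP-101 against EAE asks which receptor transcripts differ with the compound, and it shares the EAE libraries with the comparison above. By edgeR's quasi-likelihood test 0 of 10 genes were called in either direction, against 0.430% of all genes called higher and 4.81% called lower. At an unadjusted p under 0.05, 3 genes were higher and 0 lower. The share of all genes at this threshold was not computed, so this count has no background to be weighed against. The DESeq2 Wald test called 0, against 0.854% of all genes higher and 5.69% lower. For 3 genes, Grin2b, Grin2d and Gria2, all treated libraries lay above all EAE libraries, against 10.7% of all genes that separated in this direction. The median log2 fold change of the 10 genes was 0.18, against -0.00 for all genes.

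Grin2b, with the treated and EAE values given above, was 1.40-fold higher in treated mice (log2 fold change 0.49, SE 0.18, 95% interval 0.10 to 0.88, adjusted p = 0.175). Grin2d stood at 0.33 (SE 0.15, 95% interval 0.01 to 0.66, adjusted p = 0.286) and Gria2 at 0.17 (SE 0.075, 95% interval 0.01 to 0.34, adjusted p = 0.276). Grin2a had 0.35 with an interval of -0.04 to 0.73 (adjusted p = 0.376) and Grin3a 0.20 with an interval of -0.02 to 0.41 (0.382), and both overlapped. For Grin1 the log2 fold change was 0.18 (95% interval -0.07 to 0.43), for Gria4 0.11 (-0.04 to 0.26), for Gria3 0.04 (-0.11 to 0.19), for Gria1 -0.02 (-0.16 to 0.11) and for Grin2c -0.00 (-0.37 to 0.36). These intervals, which are not adjusted for the number of genes, include changes of either sign in 7 of the 10 genes. Those of Grin2b, Grin2d and Gria2 lay above 0, but these genes were not called either.

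Treated replicate 1 had the highest level of its group for 10 of the 10 genes, and EAE replicate 2 the lowest of its group for 9 of 10. On the marker lists, treated replicate 1 had the highest neuron sum (13900 CPM, against 13190 and 13620 CPM in treated replicates 2 and 3) and the lowest microglia and macrophage sum of its group (469.8 CPM against 712.6 and 739 CPM). EAE replicate 2 had the lowest neuron sum (12300 CPM, against 12480 and 13900 CPM in EAE replicates 1 and 3) and the highest microglia and macrophage sum (1916 CPM against 1613 and 1407 CPM). These 2 libraries were also at the ends of their groups in the correlation with log2 exon length. Treated replicate 1 had 0.014, against -0.234 and -0.138 in treated replicates 2 and 3. EAE replicate 2 had -0.214, against -0.159 and -0.142 in EAE replicates 1 and 3. The median of the 10 genes for treated against EAE was 0.10 without treated replicate 1 and 0.11 without EAE replicate 2, and 0 genes were called without either. The part of the cell markers and of the length trend in this was not tested. Scaled to the neuron markers, that median was 0.10, with an all-gene median of -0.08.

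Of the 81 tested genes of the 7 surrounding lists, 0 were called for EAE+EHP-101 against EAE by edgeR, with 67 estimates above 0 and 14 below. At an unadjusted p under 0.05, 3 were higher and 4 lower, again without a share of all genes at this threshold. The DESeq2 Wald test called 2 higher and 2 lower, against 0.854% and 5.69% of all genes. Those with the smallest p were Grm3, at 34.1 ± 1.38 CPM in treated and 27.7 ± 1.98 CPM in EAE mice (log2 fold change 0.30, adjusted p = 0.0613), Homer3, at 12.8 ± 1.12 CPM in treated and 16.4 ± 1.81 CPM in EAE mice (-0.35, 0.0728), and Glud1, at 376 ± 6.28 CPM in treated and 427 ± 17.9 CPM in EAE mice (-0.19, 0.0755); they were chosen after their values were seen.

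EAE+EHP-101 against Control shares libraries with both other comparisons. It gave 5 of 10 genes lower and 0 higher, against 9.82% of all genes called lower and 9.96% higher (edgeR, adjusted p under 0.05). At an unadjusted p under 0.05, 6 were lower and 0 higher, again without a share of all genes at this threshold. The DESeq2 Wald test called 6 lower and 0 higher, against 11.6% and 10.3% of all genes. Treated libraries lay below all Control libraries for 6 of the 10 genes, against 17.5% of all genes. The median log2 fold change was -0.23, against 0.01 for all genes.

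The 5 genes were Grin2a (1.73-fold lower, log2 fold change -0.79, SE 0.17, adjusted p = 0.0116), Grin2b (log2 fold change -0.68, SE 0.17, 0.0196), Gria2 (1.22-fold lower, -0.29, SE 0.075, 0.0240), Grin3a (1.28-fold lower, -0.36, SE 0.099, 0.0292) and Gria3 (1.19-fold lower, -0.24, SE 0.068, 0.0299). Gria4 did not overlap with Control but missed the threshold (-0.21, adjusted p = 0.0520). Gria1 (-0.06, adjusted p = 0.534), Grin1 (-0.12, 0.509), Grin2c (-0.16, 0.532) and Grin2d (-0.09, 0.686) overlapped and were not called. None of the 5 calls (0) held without treated replicate 2 or without treated replicate 3, although all 10 estimates stayed below 0 in both. Over all genes, calls lower were then 2.31% and 3.48%, against 9.82% with all libraries. Without treated replicates 2 and 3 in turn, Grin2a stood at -0.79 and -0.68, Grin2b at -0.60 and -0.67, and Gria2 at -0.28 and -0.29. Without Control replicate 2, 3 of the 10 genes were called lower, against 7.69% of all genes. With the length trend removed 1 was, Grin2a (-0.71, adjusted p = 0.0254), against 4.73% of all genes. In the surrounding lists 21 of 81 genes were lower and 0 higher (12 lower without Control replicate 2, 5 and 7 without treated replicates 2 and 3, and 6 with the length trend removed), among them Dlg2 (-0.38, adjusted p = 0.00578), Slc17a6 (-0.44, 0.00711), Cacng2 (-0.77, 0.00733) and Frrs1l (-0.68, 0.00902).

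To find the genes whose pattern was most like that of the subunits, the log2 CPM of each gene was centred over the 9 libraries and set against the mean profile of the 10 genes. That profile was 0.09, -0.10 and -0.09 in the treated libraries, -0.16, -0.40 and -0.11 in the EAE libraries, and 0.27, 0.34 and 0.17 in the Control libraries. By root mean square difference over 9 libraries, the nearest genes were Nbea (0.0213), which encodes the membrane trafficking protein neurobeachin, Syt7 (0.0244), a calcium sensor of vesicle fusion, Herc1 (0.0298), a ubiquitin ligase, Dscam (0.0308), a cell adhesion molecule, and Adcy5 (0.0316), an adenylyl cyclase. The likeness is a description of these 9 libraries. Their log2 fold changes for EAE against Control ran from -0.51 for Syt7 to -0.43 for Adcy5, all called lower; with the length trend removed Nbea (adjusted p = 0.121) and Herc1 (0.391) were not. Among the subunits themselves, Grin3a (0.0699) and Gria2 (0.0909) were nearest to the shared profile, and Grin2a (0.307), Grin2b (0.316), Grin2c (0.229) and Gria1 (0.220) were farthest, the first pair with larger falls against Control and the other pair with smaller ones.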

How the data were processed

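Per the labels' protocols, poly-A RNA of spinal cord was made into stranded libraries and sequenced as single-end reads. The deposited table holds raw read counts per gene under Entrez identifiers. Per the submitters' processing notes, the tools were featureCounts 1.6.1, HISAT2 2.1.0, Trimmomatic 0.36 and DESeq2 1.20.0, with build mm10. How strand and multiply mapped reads were handled is not given in the sources used here. A RefSeq table (GRCm38.p6) gave symbols to 25275 of 27179 identifiers, and identifiers without a symbol held 0.311% to 0.619% of a library's counts. In R 4.3.3, edgeR 4.0.16 was used with filterByExpr, TMM factors and a quasi-likelihood fit with 1 mean per group over all 9 libraries; genes with a Benjamini-Hochberg adjusted p under 0.05 over 16749 genes were called. The SE of a log2 fold change is its absolute value divided by the square root of F. The p-values measure the spread between the mice of 1 experiment. Alternatives used DESeq2 1.42.0 (Wald test and size factors), other scalings and filters, a replicate block, removal of each library's gene length trend (robust loess, span 0.5) and each library left out. The fit was tested on simulated data. Named genes were all 10 subunits, up to 3 called genes with the smallest p per surrounding list, and the 5 genes nearest in profile; a few genes that this rule selects are not reported here. The genes, lists and rules were chosen with earlier results of these data known. Replicate pairs within groups differed beyond counting noise (chi-square per degree of freedom 6.64 to 27.5).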

Additional observations from a re-analysis of the deposited data

How the results depend on the processing

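For EAE against Control, all 10 subunit estimates stayed below 0 in the 9 fits that left out a library and in 9 of the 10 other analyses; with the length trend removed Gria1 turned to 0.14. The count of subunits lower was 4 with the length trend removed and 6 to 9 over the 9 left-out libraries. Of all genes, 10.1% were lower with the length trend removed and 13.1% to 21.8% over left-out libraries. For EAE+EHP-101 against EAE, where 0 subunits were called in all 19 alternatives, Grin2c, near 0, turned to 0.0053 with upper quartile factors, 0.0047 with library totals, 0.0095 with only the 2 groups fitted and -0.0595 to 0.0765 over left-out libraries (above 0 in 6 of 9); Gria3 turned to -0.0303 with the neuron list and Gria1 to 0.006 without EAE replicate 2 (range -0.0503 to 0.006 over left-out libraries). For EAE+EHP-101 against Control, the count lower was 1 with the length trend removed (where Gria1 turned to 0.0747) and 0 to 6 over left-out libraries, with 3 without Control replicate 2. Of all genes, 4.73% were lower with the length trend removed, 2.31% to 12.2% over left-out libraries and 7.69% without Control replicate 2. The causes were not tested.

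No pairing of mice by replicate number was seen. Deviations of same-numbered libraries correlated at -0.187 to 0.123, and those of differently numbered libraries from different groups at -0.175 to 0.246. With a replicate block, 6 subunits were lower for EAE against Control (14.1% of all genes) and 5 for EAE+EHP-101 against Control (7.03%). For EAE+EHP-101 against EAE 0 were called, against 4.05% of all genes lower and 0.263% higher.

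In the surrounding lists for EAE against Control, removing the length trend left 2 other ionotropic subunits, 6 scaffolds and kinases and 0 deaminases lower, and 2 transport and metabolism genes higher. Of all genes, 10.1% were then lower and 15.3% higher. The neuron list left 11 scaffolds and 0 D-serine genes lower, against 9.49% of all genes. Over the other analyses named below, 12.3% to 18.1% of all genes were lower. The rise of Glud1 ended (0 higher) with DESeq2 size factors, upper quartile factors, the neuron list, no filter, only the 2 groups and the replicate block. D-serine genes lower numbered 2 with DESeq2 size factors, the Wald test, only the 2 groups and the block. Deaminases lower numbered 1 with library totals, the neuron list, only the 2 groups and the block. Over left-out libraries the counts ran from 3 to 7 auxiliary proteins lower (3 without Control replicate 2 or EAE replicate 2), 2 to 5 other ionotropic subunits lower (2 without EAE replicate 2), 0 to 2 transport genes higher, 0 to 2 D-serine genes lower and 1 to 3 deaminases lower (1 without Control replicate 2 or EAE replicate 2). For EAE+EHP-101 against EAE, 1 other ionotropic subunit was higher with the Wald test or without Control replicate 1, 1 metabotropic receptor with upper quartile factors, the Wald test, only the 2 groups or without Control replicate 3, and 2 transport genes were lower with the Wald test and 1 with the length trend removed. For EAE+EHP-101 against Control, 1 list gene was higher with library totals or over left-out libraries (without Control replicate 1 or treated replicate 1), and the count lower was 6 with the length trend removed and 5 to 28 over left-out libraries (12 without Control replicate 2, 5 and 7 without treated replicates 2 and 3). Computed from raw counts without length, the Grin2b share differed by -7.37 percentage points for EAE against Control. The other share differences moved by less than the spread between replicates. At this depth, Grin2a and Grin2b rest on the fewest counts of the 10 genes.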
